A study of Mus musculus with 34 samples.

Results

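The hippocampus and the neocortex of kainate-injected mice were compared 1 week after the injections, in 10 of the 34 arrays of the series. These were the 5 arrays titled as kainate hippocampus and the 5 titled as kainate neocortex, chosen by their sample titles alone. All mice of the series were males, injected into the peritoneum at 23 days of age and killed at 30 days. The kainate group received 15 mg/kg, the nicotine group 10 mg/kg and the control group saline, each in 3 injections given 2 h apart. The groups held 5, 6 and 6 mice, and only mice that lived to that age were sampled. The sources used here name no strain or genotype, and they do not say which hippocampal and neocortical arrays came from the same mouse. The arrays were therefore treated as independent samples, and the 6 saline and 6 nicotine arrays of each region served to show the regional difference without kainate. The p-values measure the spread between these arrays, each of which the labels number as a biological replicate.

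Kainate activates the kainate and AMPA classes of glutamate receptor, and its injection provokes seizures that spread through the limbic system. The hippocampus carries many kainate receptors, above all in area CA3, and its pyramidal cells are known as a part of the brain that such seizures can injure. The neocortex is a layered sheet whose neurons differ from those of the hippocampus in transcription factors, receptors and channels. Microglia, the resident macrophages of the brain, and astrocytes, the glial cells that take up glutamate and potassium, are known to change their gene expression after neuronal injury. Microglia then make complement, lysosomal proteases and antigen-presenting molecules, and astrocytes make more of the intermediate filament protein GFAP.

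Each value is an Affymetrix signal in arbitrary units, scaled by the authors so that the trimmed mean of an array lay at 1000.5 to 1000.6. Differences are given as hippocampus minus neocortex on the log2(signal + 16) scale, which understates the change of dim genes, and a fold is 2 to the power of that difference. After removal of the control probe sets and the dimmest 30%, 8695 probe sets were tested, and the dimmest of them had a mean level of about 135. The median signal of an array lay between 403 and 439 in the kainate hippocampus and between 382 and 413 in the kainate neocortex. The ratio of 3' to 5' Gapdh signal, a sign of RNA quality, was 0.882 to 0.943 and 0.869 to 0.967 in the same order, so the ranges overlapped. Arrays of the same region correlated at 0.928 to 0.968 and arrays of different regions at 0.925 to 0.957.

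The regional labels were set beside the signal of marker lists. These lists were chosen with earlier results of these data known, so this is not an independent check of the labels. The summed signal of 23 hippocampal projection neuron genes was 58126 to 63982 in the 5 kainate hippocampus arrays and 35080 to 35879 in the 5 kainate neocortex arrays. The sum of 13 genes of neocortical layers and projection neurons was 23794 to 28618 and 37546 to 42345. Both ranges were apart in the direction of the labels. Bright genes weigh most in such sums. In the first list, Nnat and Cpne6 had mean signals of 14333 and 12340 in the kainate hippocampus.

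Of the 8695 probe sets, 938 (10.8%) differed between the regions after kainate at an adjusted p under 0.05 (limma), and a probe set past that threshold is referred to as called. Counts over gene lists below use the brightest tested probe set of each gene and are to be read against the shares over all probe sets. Higher in the hippocampus were 494 probe sets (5.68%) and lower 444 (5.11%), standing for 415 and 377 named genes. The difference was over 2-fold for 149 of the higher and 90 of the lower ones. All 5 arrays of one region lay beyond all 5 of the other in 880 probe sets (10.1%), of which 739 were among the called. The split between higher and lower depends on the scaling: with each array centred on its median, 361 were higher and 541 lower. The spiked control probe sets put the kainate arrays into 3 clusters, of 4, 1 and 0 hippocampal and 3, 1 and 1 neocortical arrays. With the cluster as a block 838 probe sets were called, 758 of them among the 938. Within the largest cluster alone, a comparison added after the data were seen, 856 were called, 410 higher and 446 lower. Of those 856, 635 were among the 938.

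Probe sets that differed between the regions after kainate mostly had the same sign in mice without it. The same comparison called 716 probe sets (8.23%) in the 12 saline arrays and 777 (8.94%) in the 12 nicotine arrays. The kainate and saline calls shared 415 probe sets in the same direction, which is 44.2% of the kainate calls and 58.0% of the saline calls, and 2 probe sets were called in opposite directions. Among the kainate calls, 89.3% had the same sign in the saline arrays, against 64.7% of all probe sets tested. Over all probe sets the regional difference after kainate correlated with that after saline at 0.53 and with that after nicotine at 0.56, and the saline and nicotine differences correlated with each other at 0.63. The 3 comparisons share no array, but within each all probe sets share the same 10 or 12 arrays. A direct test of the regional difference after kainate against that after saline, fitted on all 34 arrays, called 77 probe sets (0.886%), 69 of them with a difference shifted toward the hippocampus and 8 toward the neocortex.

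**Figure D1:**
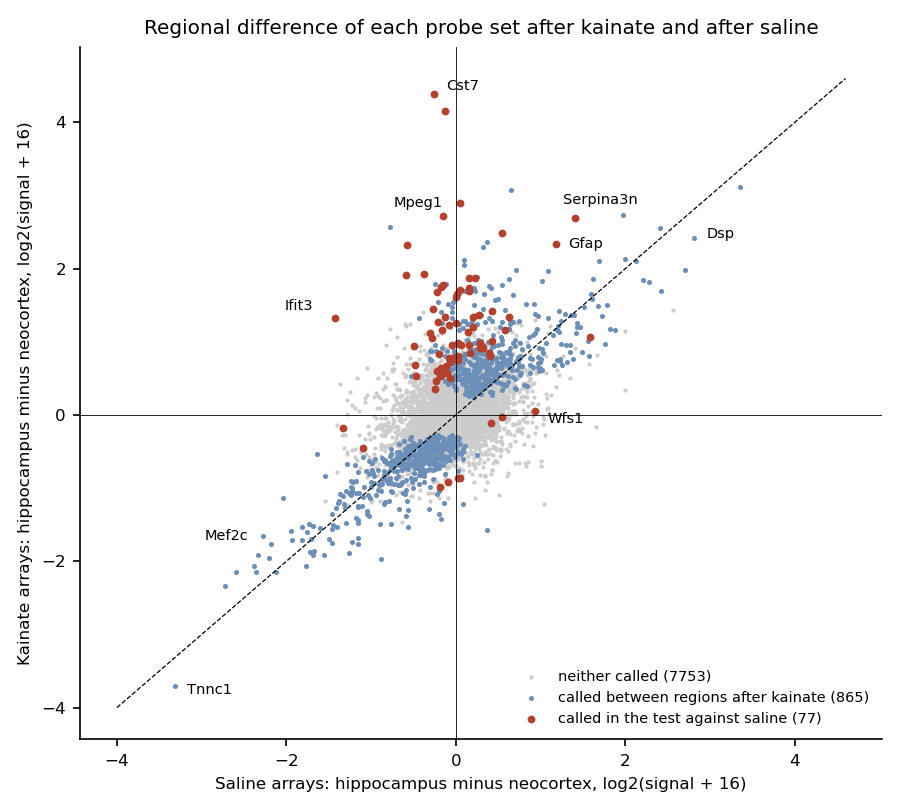
Each point is 1 of the 8695 probe sets: the x axis gives hippocampus minus neocortex in the 12 saline arrays and the y axis the same in the 10 kainate arrays, both as log2(signal + 16), with the dashed line where both are equal. Tnnc1, Mef2c and Dsp lie along the diagonal, while Cst7 and Mpeg1 lie at 4.39 and 2.90 on the kainate axis and at -0.26 and 0.05 on the saline axis.

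The 15 highest regional differences were taken among called probe sets with 1 gene symbol whose arrays did not overlap between the regions, with a gene represented by its brightest called probe set. They belonged to microglial, astrocytic and antigen-presentation genes, together with hippocampal neuron markers. Cst7, a cystatin made by activated microglia, had signals of 1900, 1168, 579.8, 1126 and 1493 in the 5 kainate hippocampus arrays and of 40, 47.5, 31.8, 34.4 and 51.3 in the 5 kainate neocortex arrays. No array of one region came near the other, and the difference was 4.39 (SE 0.30, 21-fold, limma adjusted p = 3.30e-07). The neocortical level lay under the level of 135, so the size depends on the pseudocount: it was 4.82 with a pseudocount of 1 and 3.56 with 64. The mean of 1 region also lay under that level for Lyz2, Csf3r, Lct, Iigp1, Gbp2, H2-D4, Prox1, Myh8, Adra1b, Sema3a, Cntn4, Pcdh7, Fgf14, Rgs6, Dtl and Tnnc1, so their sizes carry the same limit.

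Mpeg1, a pore-forming protein of macrophages, read 6031, 7745, 3822, 5370 and 5730 in the hippocampus and 850.3, 742, 521, 905 and 735 in the neocortex, a difference of 2.90 (SE 0.18, 7.44-fold, adjusted p = 1.94e-07). For Lyz2, the lysozyme of myeloid cells, hippocampal signals were 1192, 577, 366, 559.8 and 768 and neocortical ones 49.3, 29.3, 109.8, 114 and 44.7, (difference 3.07, SE 0.37, adjusted p = 6.97e-05). In all 3 of these genes hippocampal replicate 3 was the lowest of its group and still above every neocortical array.

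A pair of astrocyte genes were as clearly apart. Serpina3n, a protease inhibitor that marks reactive astrocytes, had hippocampal signals of 9183, 9482, 7075, 8262 and 9403 against neocortical signals of 1244, 1472, 1211, 1511 and 1209, a difference of 2.69 (SE 0.11, adjusted p = 3.46e-09). Gfap, the intermediate filament of astrocytes, read 19470, 19140, 15902, 15433 and 19751 against 4637, 4526, 2840, 2792 and 3174, a difference of 2.34 (SE 0.15, adjusted p = 2.60e-07). In the saline arrays the differences were 1.41 and 1.18. Agt, angiotensinogen, which brain astrocytes secrete, differed by 2.74 after kainate (adjusted p = 3.81e-05) and by 1.97 after saline. Neocortical replicate 5 of Agt stood apart at 531, against 118 to 186 in the other 4.

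The remaining genes among the 15 highest were Csf3r, H2-K2, Lct, Dsp, Iigp1, Nnat, Gbp2, Cebpd and Zbtb20, with differences from 2.10 to 2.72. Lct, Dsp, Nnat and Zbtb20 are hippocampal neuron markers and differed by 2.41, 2.81, 2.00 and 2.13 after saline as well. Csf3r, the receptor of granulocyte colony-stimulating factor, differed by 2.72 on the probe set named here, while a brighter probe set of the gene differed by 0.30 (adjusted p = 0.301). Iigp1, an interferon-induced GTPase, differed by 2.29 on a dim probe set, and another was not called (adjusted p = 0.202).

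**Figure D2:**
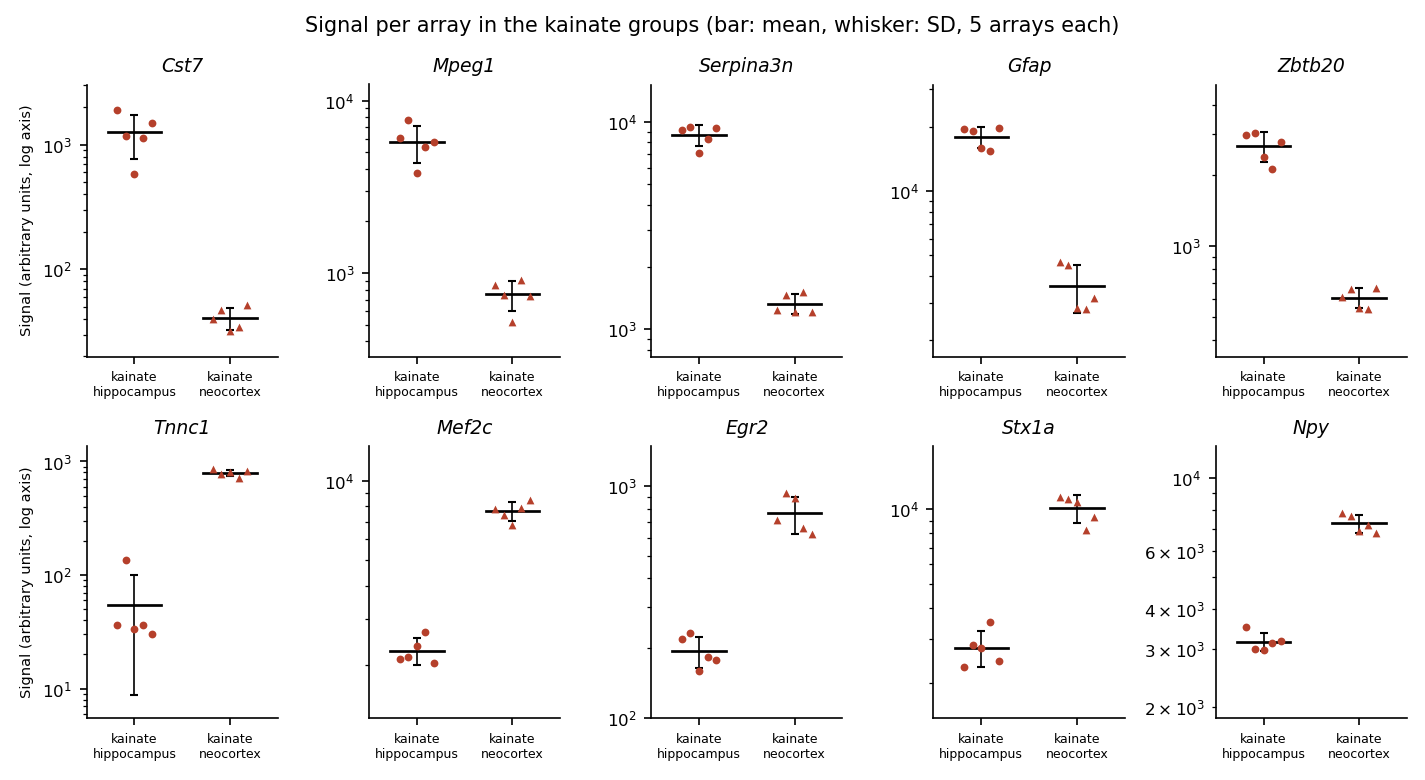
Signal of each kainate array (log axis, arbitrary units) for 5 genes higher in the hippocampus in the upper row and 5 lower in it below, with circles for hippocampus, triangles for neocortex, bars for the mean and whiskers for the SD of 5 arrays. The regions do not overlap in any of the 10 genes, and 1 hippocampal array of Tnnc1 reads 136 where the other 4 read 30.4 to 36.7.

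Genes that distinguish hippocampal from neocortical neurons differed between the regions in the kainate mice. Of 23 hippocampal projection neuron genes tested, 14 were higher in the hippocampus and 1, Calb1, was lower. The median difference was 0.98 (saline 1.21, nicotine 0.93) against 0.02 over all probe sets. Zbtb20, a transcription factor that specifies hippocampal pyramidal neurons, had hippocampal signals of 2970, 3042, 2406, 2136 and 2772 and neocortical signals of 611, 661, 549, 543 and 666. Its difference was 2.10 (SE 0.13, adjusted p = 1.94e-07), and 2.13 in saline mice. Npy2r, a neuropeptide Y receptor, read 2216, 1939, 1710, 2012 and 1903 against 444, 650.2, 628, 685 and 598, and its difference of 1.69 compared with 2.42 after saline.

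In the dentate gyrus list, 6 of 14 genes were higher in the hippocampus, among them Prox1, Lct and Dsp, and Calb1 was lower. Prox1, the transcription factor that defines dentate granule cells, ranged from 163 to 692 in the hippocampus and from 30.3 to 142 in the neocortex, without overlap (difference 1.86, SE 0.43, adjusted p = 0.0108). Dsp, desmoplakin, read 949, 578, 837, 757 and 762 in the hippocampus and 65, 133, 110.3, 120.1 and 309 in the neocortex. The median of the dentate list was 0.04, close to that of all probe sets, and 6 became 4 with median centring and 4 without hippocampal replicate 3. The calls of Neurod1, Fzd9 and Tgfb2 in these neuron lists were lost on leaving out any 1 of 9, 7 and 7 of the 10 arrays, with adjusted p up to 0.13, 0.0897 and 0.0928.

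Neocortical neuron genes went the other way. Of 13 tested, 6 were lower in the hippocampus and 1, Crym, was higher, with a median of -0.32 (saline -0.09, nicotine -0.26). Without hippocampal replicate 3, 5 were lower and the median was -0.19. Mef2c, a transcription factor of cortical excitatory neurons, read 2108, 2139, 2361, 2675 and 2034 in the hippocampus and 7845, 7429, 6801, 7927 and 8491 in the neocortex, a difference of -1.76 (SE 0.10, adjusted p = 1.42e-07), and its 3 other probe sets gave -1.91 to -2.15. Tbr1, which specifies deep-layer projection neurons, read 2124, 2508, 1809, 1754 and 2270 against 7622, 5481, 7396, 5876 and 4901, a difference of -1.56 (adjusted p = 4.50e-06). Cux2, a factor of the upper layers, spread widely in the hippocampus, from 44.8 to 279, and was even in the neocortex, from 478 to 579.7 (difference -1.95, adjusted p = 0.00303). After saline these 3 genes differed by -2.18, -1.46 and -2.20. The list also holds Lmo4, at -0.90, and Foxp1, whose call was lost on leaving out any 1 of 7 arrays (adjusted p up to 0.092).

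Crym, a thyroid hormone binding protein, is the exception in the neocortical list, at 2188, 2541, 3020, 2363 and 1778 in the hippocampus and 1223, 1061, 1206, 739 and 1057 in the neocortex. Its difference of 1.16 (adjusted p = 2.44e-04) compared with 1.88 after saline, and the test against saline did not call it (-0.73, adjusted p = 0.0938).

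Lowest in the hippocampus relative to the neocortex was Tnnc1, the troponin C of slow muscle and heart, with hippocampal signals of 36.7, 136, 33.3, 36.1 and 30.4 and neocortical signals of 855, 768, 806, 719.7 and 829. The difference was -3.70 (SE 0.32, adjusted p = 3.97e-06), -3.32 in saline mice, and -4.11 to -2.92 with pseudocounts of 1 to 64. The other 14 of the 15 lowest genes, taken by the same rule as the highest, ranged from -2.15 to -1.71. Dimmer probe sets of Myl4 and Homer1, which that choice leaves out, differed by -2.34 and -2.07 (adjusted p = 1.34e-05 and 0.00444). Among them, Stx1a, a syntaxin of the presynaptic fusion machinery, read 2327, 2848, 2766, 3521 and 2448 against 11211, 11027, 10681, 8244 and 9286 (difference -1.86, SE 0.12, adjusted p = 3.08e-07).

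The same group included the GABA-A receptor subunits Gabrd and Gabra3, the growth-response factor Egr2, the G-protein regulator Rgs6, Fgf14, a regulator of sodium channels, and the cAMP-regulated phosphoprotein Arpp19. Gabrd, an extrasynaptic subunit, read 76.3, 225, 391, 137 and 75 in the hippocampus and 684, 497, 657, 791 and 465 in the neocortex. Its values were scattered in the hippocampus (difference -1.91, adjusted p = 0.00346). Dtl, Trbv1, Epop and Fhod3 differed by -2.15, -2.07, -1.73 and -1.75, with -2.12, -2.38, -1.23 and -1.46 after saline. Pdyn, prodynorphin, differed by -1.97 on a dim probe set and by -0.27 (adjusted p = 0.567) on a brighter one, so its direction rests on the dim set.

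Microglia and macrophage genes were called higher in the kainate hippocampus, and none was called lower. Of 34 tested, 19 were higher (55.9%, against 5.68% of all probe sets), with a median difference of 1.01 against -0.01 in saline mice and 0.02 over all probe sets. The summed signal of the list was 50314 to 69776 in the kainate hippocampus and 25577 to 29552 in the kainate neocortex, against 23129 to 24331 and 23133 to 26014 in the 2 regions after saline. In tissue RNA, more microglia and more RNA of these genes per cell cannot be told apart, and the same holds for fewer cells of a type and less RNA per cell. Kainate hippocampus replicate 3 had the lowest sum, 50314, and was the lowest of its group in 16 of the 19 genes called, and 19 were called without it.

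Tyrobp, the adaptor that carries signals of microglial receptors, read 4261, 3826, 2377, 2843 and 4318 in the hippocampus and 1225, 788, 775, 1099 and 846 in the neocortex (difference 1.87, SE 0.18, adjusted p = 1.18e-05). Cd68, a lysosomal protein of phagocytes, ranged from 1426 to 2062 and from 639.9 to 801, a difference of 1.26 (adjusted p = 1.57e-05). Both sets of arrays were apart, and both genes differed by 0.16 or less after saline. Aif1, which encodes the microglial marker IBA1, read 764, 573, 425, 424 and 702 against 272, 259.6, 179, 67 and 105 (difference 1.74, adjusted p = 0.00348). Itgam, the CD11b integrin, read 448, 353, 177, 139 and 362 against 209, 161, 114, 137 and 79.1, and its groups overlapped (difference 0.94, adjusted p = 0.121). Cd52 and Ly86, surface proteins of leukocytes, differed by 1.92 and 1.87.

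The subunits of C1q, which starts the classical complement cascade and is made by microglia in the brain, were higher in the hippocampus together. C1qa read 13371, 12474, 7396, 9848 and 14257 in the hippocampus and 3831, 3394, 2967, 3672 and 3234 in the neocortex, a difference of 1.71 (SE 0.15, adjusted p = 5.67e-06). The differences of C1qb and C1qc were 1.73 and 1.65, against 0.16 and 0.01 after saline, and a dim second probe set of C1qb differed by 0.04 (adjusted p = 0.949). In all, 5 of 14 complement genes were higher and none was called lower, the other called ones being Serping1, the C1 inhibitor (0.96), and C3ar1, the receptor of the C3a fragment (0.88). The C3ar1 call was lost without hippocampal replicate 1 or 5 (adjusted p up to 0.0626). The motif GAGGAAGT, a form of the site of the myeloid factor PU.1, was found on either strand in 802 of 32851 promoters (2.44%), in 0 of 25 of the microglial list and in 1 of 10 of the complement list, C1qc.

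Lysosomal genes followed. Of 30 proteases, cystatins and other lysosomal genes, 18 were higher in the hippocampus and none was called lower, with a median of 0.68 (saline 0.06). Ctss, cathepsin S, a protease of antigen-presenting cells, read 15801, 14836, 8831, 11566 and 14532 against 4460, 4184, 4211, 4312 and 3782, a difference of 1.61 (SE 0.14, adjusted p = 3.17e-06) and of 0.00 after saline. Ctsd, cathepsin D, ranged from 11949 to 26093 and from 5806 to 9614 (difference 1.34, adjusted p = 3.68e-04), and Ctsz differed by 1.70 (adjusted p = 0.00139). Cst7, Ctss and Cd68 are in the microglial list too. The number called was 15 with median centring and 20 without hippocampal replicate 3, which was the lowest of its group in 14 of the 18.

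Genes of the interferon response and of MHC class I antigen presentation were also higher in the hippocampus. Interferon signalling ends at the interferon-stimulated response element, a promoter sequence bound by STAT and IRF factors. Its core, a GAAA followed after any 2 bases by another GAAA, was searched on both strands in the 250 bases before the gene start, and 978 of 32851 RefSeq mouse promoters (2.98%) held it. Of the 22 interferon-induced genes tested, 17 had a promoter in that table and 6 held the motif, namely Gbp2, Gbp3, Ifit3, Igtp, Irgm1 and Isg15. Among the 14 MHC class I genes with a promoter, 1, B2m, held it. Of the genes with a promoter called higher in the hippocampus, 4 of 10 interferon-induced and 1 of 7 class I genes held it. Whether the motif goes with the regional difference was not tested. A match of these letters is a description of the sequence and not a tested binding site. Among the called genes that held the motif, the promoters of the 4 with the largest regional difference are shown, 3 interferon-induced genes and B2m. The motif or its reverse complement is in capitals (build GRCm38.p6, RefSeq, 5′ to 3′ on the gene's strand).
Gbp2 (chr3:142620413-142620662, plus strand): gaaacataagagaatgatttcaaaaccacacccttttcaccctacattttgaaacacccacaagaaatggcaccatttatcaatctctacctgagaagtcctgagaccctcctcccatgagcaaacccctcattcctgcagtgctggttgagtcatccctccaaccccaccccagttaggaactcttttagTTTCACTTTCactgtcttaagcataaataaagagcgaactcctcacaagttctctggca
Ifit3 (chr19:34583279-34583528, plus strand): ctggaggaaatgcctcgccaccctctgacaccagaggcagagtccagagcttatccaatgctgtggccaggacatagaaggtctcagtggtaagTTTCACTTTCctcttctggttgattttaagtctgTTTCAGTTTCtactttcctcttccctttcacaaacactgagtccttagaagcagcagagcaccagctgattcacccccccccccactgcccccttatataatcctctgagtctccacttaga
Isg15 (chr4:156200819-156201068, minus strand): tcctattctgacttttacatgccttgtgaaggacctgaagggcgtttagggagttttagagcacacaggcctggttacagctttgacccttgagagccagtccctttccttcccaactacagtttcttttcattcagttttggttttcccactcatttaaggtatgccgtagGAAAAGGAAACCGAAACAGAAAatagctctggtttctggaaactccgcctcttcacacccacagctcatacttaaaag
B2m (chr2:122147437-122147686, plus strand): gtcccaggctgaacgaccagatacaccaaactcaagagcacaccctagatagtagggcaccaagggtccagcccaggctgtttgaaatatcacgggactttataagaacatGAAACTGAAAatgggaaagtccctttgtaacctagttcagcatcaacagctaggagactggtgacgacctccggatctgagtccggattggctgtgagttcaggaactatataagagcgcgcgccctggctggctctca
The motif starts 59 bases before the gene start in Gbp2 and 139 in B2m. Ifit3 holds 2 separate matches, and Isg15 holds 3 that overlap in 1 run.

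Of the 22 interferon-induced genes, 12 were higher in the hippocampus and none was called lower, with a median difference of 1.04 against 0.20 after saline. Gbp2, a guanylate-binding GTPase, read 490.2, 399, 448, 386 and 406 in the hippocampus and 102, 101, 98.3, 57.4 and 77.5 in the neocortex, with no overlap (difference 2.12, SE 0.25, adjusted p = 4.72e-05). Ifit3, a member of the interferon-induced tetratricopeptide repeat family, read 539, 1214, 694, 599 and 819.7 against 259.5, 379, 256, 231 and 341 (difference 1.32, adjusted p = 0.00143). After saline its signals ran from 34.4 to 283 with a median of 73.8 in the hippocampus and from 125 to 571 with a median of 291 in the neocortex, overlapping and with a difference of -1.43 that did not pass (adjusted p = 0.0558). Lgals3bp, a secreted galectin-binding glycoprotein, and Irf8, a transcription factor of microglia and interferon signalling, differed by 1.77 and 1.36 (adjusted p = 2.85e-06 and 2.89e-04). Isg15, a ubiquitin-like modifier named for its promoter, differed by 1.29 (adjusted p = 0.00961). The number called was 11 with median centring and 10 with quantile normalization.

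In the MHC class I list, 8 of 17 genes were higher in the hippocampus and none was called lower, with a median of 0.62 against -0.04 after saline. B2m, the light chain of class I molecules, read 11894, 10576, 4895, 6764 and 9948 in the hippocampus and 4138, 3812, 4152, 2801 and 2240 in the neocortex (difference 1.33, SE 0.23, adjusted p = 0.00162). H2-K1, a class I heavy chain, read 4909, 6103, 3924, 4801 and 5793 against 1477, 1707, 1560, 1652 and 1125, a difference of 1.75 (adjusted p = 1.80e-06). Psmb8, a subunit of the immunoproteasome that cuts peptides for class I, differed by 1.66 (adjusted p = 1.50e-04). The heavy chains H2-K1, H2-K2, H2-D1, H2-D4 and H2-Q4 have near-identical sequences and are measured on probe sets that can share targets, so which of them differed is uncertain. Another, dim probe set of H2-K1 differed by 0.17 (adjusted p = 0.876), and H2-K2 spread in the neocortex from 204 to 1552.

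Ctss was the 1 gene called among 7 MHC class II genes tested, and the median was 0.07. Ctss is also on the lysosomal and microglial lists.

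Astrocyte genes were higher in the hippocampus in both forms. Of 29 genes of reactive astrocytes, 13 were higher and none was called lower, with a median of 0.67 (saline 0.16). Among the 13 are Gbp2, Psmb8 and Serping1, which were also counted above in the interferon, class I and complement lists. Of 32 general astrocyte genes, 19 were higher and none was called lower, with a median of 0.43 (saline 0.31), and 16 with median centring. Aqp4, the water channel of astrocyte endfeet, read 6889, 7538, 4383, 4960 and 6336 in the hippocampus and 2788, 3075, 2596, 2408 and 2256 in the neocortex (difference 1.17, adjusted p = 7.82e-05). Apoe, the main lipid carrier of astrocytes, read 63863, 84230, 69825, 68031 and 70380 against 38103, 35745, 35159, 37654 and 41989 (difference 0.91, SE 0.09, adjusted p = 1.16e-05).

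In both genes the 2 regions were apart, and after saline the differences were 0.63 and 0.32. Cebpd, a transcription factor of the acute phase response, and A2m, a protease inhibitor, differed by 2.10 and 1.97 after kainate and by 1.69 and 1.09 after saline. Clu, clusterin, and the metallothioneins Mt1 and Mt2 differed by 0.94, 0.81 and 0.85. The summed signal of the reactive list was 48199 to 61858 in the kainate hippocampus and 21752 to 25397 in the kainate neocortex, and 25544 to 28825 and 19378 to 20698 after saline.

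**Figure D3:**
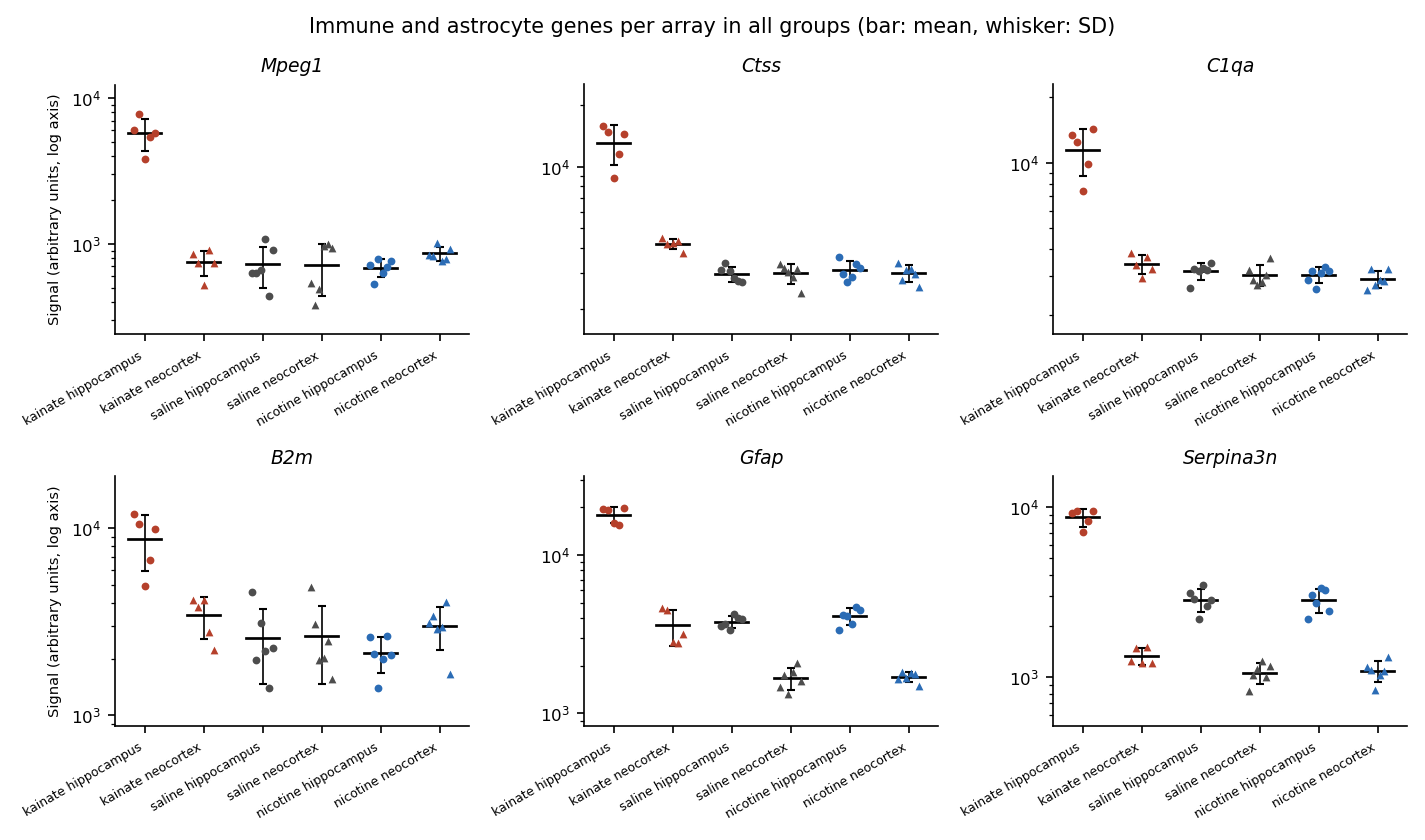
Signal of each array (log axis, arbitrary units) for 6 microglial, antigen-presentation and astrocyte genes in all 6 groups, with circles for hippocampus, triangles for neocortex, bars for the mean and whiskers for the SD of 5 or 6 arrays. Kainate hippocampus lies above the other 5 groups in Mpeg1, Ctss, C1qa, B2m, Gfap and Serpina3n, and for Gfap and Serpina3n saline hippocampus also lies above saline neocortex. For B2m the gap is narrow, between a kainate hippocampus array of 4895 and a saline neocortex array of 4866. The test against saline did not call B2m (shift 1.37, limma adjusted p = 0.0894).

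The test of the regional difference after kainate against that after saline asks which regional differences were of another size in the kainate mice. It called 77 of 8695 probe sets (0.886%), while 802 had an unadjusted p under 0.05. Of the 77, 73 were also called between the regions after kainate. The shift went toward the hippocampus for 69 probe sets (58 named genes) and toward the neocortex for 8 (7 named genes), and with median centring the counts were 41 and 12. By list, 10 of 34 microglial, 10 of 30 lysosomal, 3 of 14 complement, 4 of 29 reactive astrocyte and 4 of 32 astrocyte genes were shifted toward the hippocampus. So were 3 of 22 interferon-induced and 2 of 17 MHC class I genes. B2m, Gbp2, Psmb8, Lyz2 and H2-K2 were among the genes named above that this test did not call. Their shifts were 1.37, 2.02, 1.32, 2.43 and 3.35 (limma adjusted p = 0.0894, 0.25, 0.353, 0.107 and 0.0839).

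The largest shift belonged to Cst7, at 4.65 (SE 0.59, adjusted p = 2.57e-06). Saline levels of Cst7 ran from 16.2 to 52.6 with a median of 35 in the hippocampus and from 21.7 to 125 with a median of 40 in the neocortex, all under the level of 135. Among probe sets with 1 gene symbol, next came Csf3r, Mpeg1, Ifit3, Cd52, H2-D4, H2-K1, Lgals3bp, H2-D1 and Tyrobp, with shifts from 2.86 down to 1.71. The Csf3r shift is that of a dim probe set. A brighter Csf3r probe set differed by 0.30 between the regions after kainate (limma adjusted p = 0.301). A probe set with no single symbol was shifted by 4.29 (adjusted p = 2.41e-07), and 2 others by 2.89 and 1.94. For Mpeg1, saline signals ran from 441 to 1078 with a median of 646 in the hippocampus and from 382 to 991 with a median of 734 in the neocortex, and the kainate neocortex was in the same range. Its hippocampal level after kainate exceeded that after saline by 2.98 on the log2 scale, against 0.13 in the neocortex.

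The regional differences of Ctss and C1qa were shifted by 1.62 (SE 0.15, adjusted p = 8.52e-09) and 1.65 (SE 0.16, adjusted p = 1.07e-08). For Ctss, the kainate minus saline difference was 2.10 in the hippocampus and 0.49 in the neocortex. Gfap was shifted by 1.16 (adjusted p = 3.87e-05), with a kainate minus saline difference of 2.23 in the hippocampus and 1.07 in the neocortex. Serpina3n was shifted by 1.28 (adjusted p = 1.00e-05) and Apoe by 0.60 (adjusted p = 0.00113). The shifts of Clu, Ctsz, Mt1 and Mt2 (0.64, 1.53, 0.41 and 0.46) were lost on leaving out any 1 of 3, 9, 14 and 11 of 22 arrays, with adjusted p up to 0.061, 0.0882, 0.114 and 0.118.

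Shifts toward the neocortex concerned, among named genes, neuronal and sterol genes and the kinase gene Cdk14. Wfs1, an endoplasmic reticulum protein that marks CA1 pyramidal cells, read 3511, 3817, 2780, 3315 and 3542 in the kainate hippocampus and 3282, 3584, 2799, 3120 and 3419 in the kainate neocortex, which overlapped (difference 0.06, adjusted p = 0.791). After saline the regions were apart, running from 3569 to 4931 with a median of 4600 and from 1904 to 2578 with a median of 2326, a difference of 0.94. The shift was -0.88 (SE 0.16, adjusted p = 9.99e-04), with a kainate minus saline difference of -0.39 in the hippocampus and 0.49 in the neocortex.

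Calb1, the calcium buffer calbindin of granule and CA1 cells, read 1685, 1500, 1368, 1507 and 1801 in the kainate hippocampus and 3075, 3084, 3390, 3067 and 2990 in the kainate neocortex, a difference of -0.99 (SE 0.10, adjusted p = 1.31e-05). After saline the groups were closer, running from 2162 to 2684 with a median of 2418 and from 2616 to 2992 with a median of 2767. The shift of -0.80 (SE 0.12, adjusted p = 5.73e-05) combined -0.63 in the hippocampus with 0.17 in the neocortex. Cpne6, a calcium-dependent membrane-binding protein of hippocampal neurons, was higher in the hippocampus, at 12172, 12725, 13744, 11879 and 11181 against 5703, 4938, 5530, 7060 and 6383. Its difference was 1.06 after kainate and 1.58 after saline, and the shift of -0.52 (adjusted p = 0.0195) was lost without kainate hippocampus replicate 5 or kainate neocortex replicate 4 (adjusted p up to 0.059). Cdk14, a cyclin-dependent kinase, was shifted by -0.58, which was lost without kainate hippocampus replicate 2 (adjusted p = 0.0687).

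**Figure D4:**
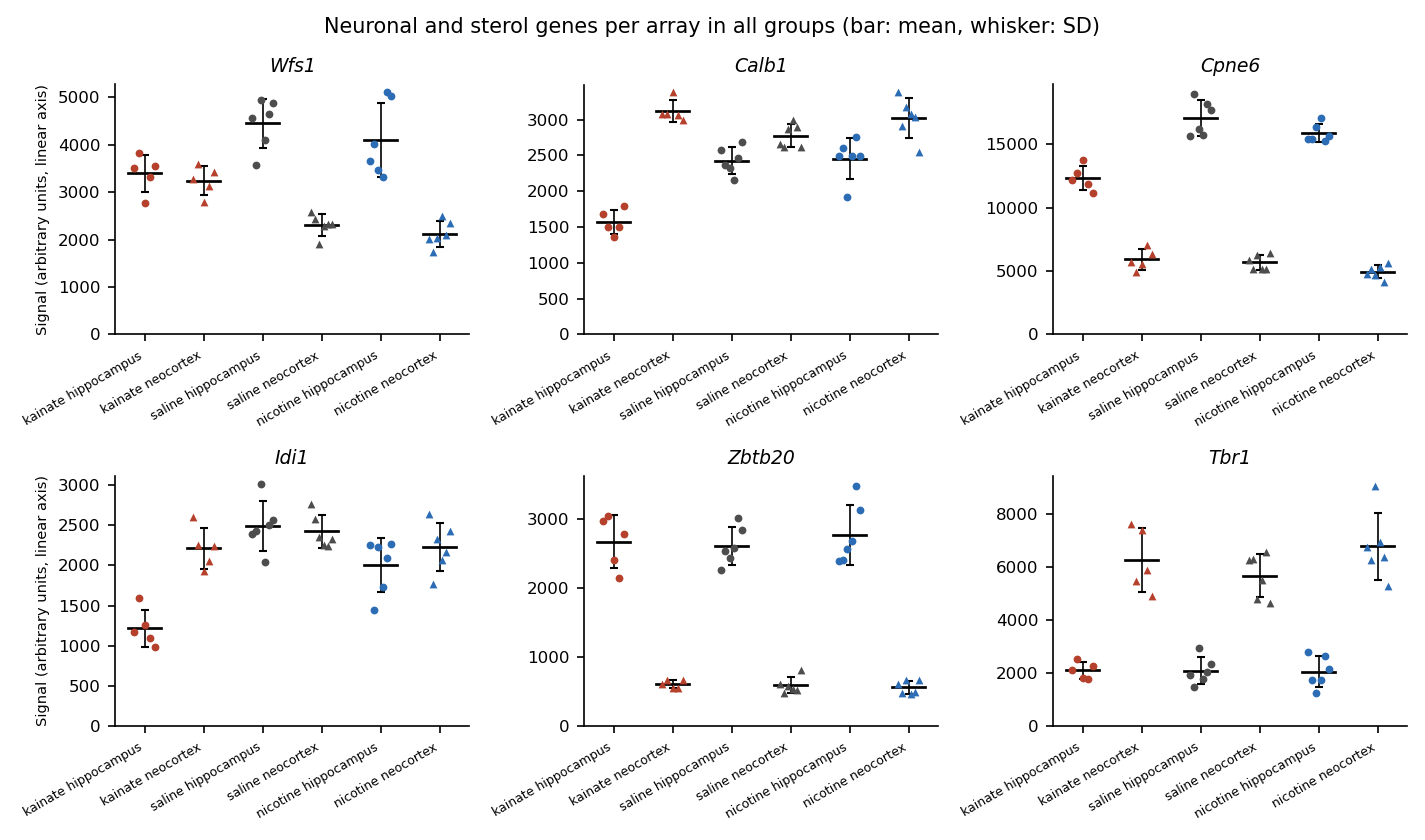
Signal of each array (linear axis, arbitrary units) for 6 neuronal and sterol synthesis genes in all 6 groups, with circles for hippocampus, triangles for neocortex, bars for the mean and whiskers for the SD of 5 or 6 arrays. Wfs1 overlaps between the regions after kainate and not after saline or nicotine, Calb1 and Idi1 have their lowest means in the kainate hippocampus, and in all 3 treatments Zbtb20 is higher in the hippocampus and Tbr1 in the neocortex without overlap.

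Of 21 cholesterol synthesis genes, 3 were shifted toward the neocortex, as were 3 of 23 hippocampal projection neuron genes. Between the regions after kainate, 8 of them were lower in the hippocampus and 1, Srebf1, was higher, with a median of -0.35 against 0.00 over the same genes after saline. Idi1, the isomerase of the isoprenoid branch, read 1170, 1589, 1253, 1095 and 987 in the hippocampus and 2599, 2250, 1926, 2056 and 2240 in the neocortex (difference -0.86, SE 0.13, adjusted p = 5.82e-04), and 0.03 after saline. Hmgcs1, the synthase ahead of the rate-limiting reductase, read 2004, 1861, 1472, 1878 and 1916 against 3699, 3389, 5006, 2508 and 3064 (difference -0.92, adjusted p = 0.00139), with no overlap. The Hmgcs1 difference was -0.09 after saline and -0.44 after nicotine (limma adjusted p = 0.689 and 0.0916). Msmo1, a sterol oxidase, ranged from 652 to 1314 and from 1278 to 1952, which overlapped (difference -0.86, adjusted p = 0.0065).

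The shifts against saline were -0.90 for Idi1 (adjusted p = 0.00196), -0.82 for Hmgcs1 (adjusted p = 0.0484) and -0.91 for Msmo1 (adjusted p = 0.0393). The calls of Hmgcs1 and Msmo1 were lost on leaving out any 1 of 17 and 14 of 22 arrays, with adjusted p up to 0.139 and 0.11. Srebf1, which encodes a sterol and fatty acid transcription factor, differed by 0.85 between the regions (adjusted p = 4.78e-05). Its proteins and SREBP2 bind the sterol regulatory element, and the motif TCACCCCAC was found, on either strand, in 163 of 32851 promoters (0.496%) and in 1 of 16 from the list. That promoter is shown with the motif in capitals (build GRCm38.p6, RefSeq).
Hmgcs1 (chr13:119690101-119690350, plus strand): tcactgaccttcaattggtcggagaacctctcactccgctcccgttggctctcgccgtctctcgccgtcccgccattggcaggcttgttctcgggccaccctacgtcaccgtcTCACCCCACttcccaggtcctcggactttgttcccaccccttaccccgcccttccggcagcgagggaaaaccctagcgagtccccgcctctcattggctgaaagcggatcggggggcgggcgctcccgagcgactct
The motif starts 137 bases before the gene start.

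Penk, proenkephalin, falls outside the rule for named genes and was chosen after its values were seen, because its regional difference was called in the test against saline and not between the regions after kainate. Its probe set read 3986, 2848, 3010, 3666 and 2830 in the kainate hippocampus and 4051, 2532, 3762, 5244 and 3243 in the kainate neocortex, which overlapped (difference -0.18, adjusted p = 0.598). The saline arrays read 2391, 1275, 1991, 1705, 1606 and 1806 in the hippocampus and 3851, 5896, 5495, 6020, 3913 and 2620 in the neocortex, without overlap. The shift was 1.15 (SE 0.30, adjusted p = 0.0484). On another, less bright Penk probe set the difference was 0.40 after kainate (adjusted p = 0.474), and its shift of 0.44 was not called (adjusted p = 0.829).

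Interneuron genes were lower in the kainate hippocampus than in the neocortex more often than higher. Of 21 tested, 8 were lower and 2 higher, with a median of -0.45, the lowest of the 34 list medians, against -0.18 after saline. None of them was called in the test against saline. Npy, neuropeptide Y, read 3508, 3017, 2987, 3130 and 3182 in the hippocampus and 7838, 7670, 6878, 7215 and 6795 in the neocortex (difference -1.20, SE 0.08, adjusted p = 4.27e-07), and -1.39 after saline. Vip, the peptide of a cortical interneuron class, read 236, 214, 276, 192 and 138 against 472, 409, 494, 417 and 462 (difference -1.07, adjusted p = 0.00382).

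Gad1, the enzyme that makes GABA, overlapped slightly, at 6211, 5212, 4361, 5620 and 5487 and 7453, 6687, 8393, 8240 and 6103, and differed by -0.45 (adjusted p = 0.0182). Sst, somatostatin, read 5288, 6576, 6544, 6355 and 6404 against 8573, 7900, 5891, 10890 and 10206, a difference of -0.45 that did not pass (adjusted p = 0.0578). Pvalb, parvalbumin, differed by -0.35 (adjusted p = 0.207) on its brighter probe set and by -1.30 (adjusted p = 0.00574) on a dim one. Calb2, calretinin, was higher in the hippocampus, with a difference of 1.28 (adjusted p = 3.36e-05), 1.24 after saline. The calls of Tac1, Kcnc1 and Dlx2 were lost on leaving out any 1 of 5, 7 and 7 of 10 arrays (adjusted p up to 0.0746, 0.0658 and 0.0862).

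Among 30 neuropeptides and trophic factors, 5 were lower and 1, Tgfb2, was higher in the hippocampus. The lower ones were Adcyap1, the precursor of the peptide PACAP (-1.48, adjusted p = 5.44e-04), Npy, Tac1, Vip and Cck, cholecystokinin (-0.49, adjusted p = 0.00786). The Tgfb2 and Tac1 calls were lost without any 1 of 7 and 5 arrays (adjusted p up to 0.0928 and 0.0746).

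Immediate early genes, which neuronal activity induces, were called lower in the hippocampus more often than higher. Of 33 tested, 9 were lower and 2 higher, with a median of -0.32, and the saline median of -0.38 was similar. Egr1, a zinc-finger factor used as an activity marker, read 3340, 3136, 2937, 2698 and 2300 in the hippocampus and 9982, 10290, 9594, 8526 and 7929 in the neocortex, a difference of -1.68 (SE 0.11, adjusted p = 3.30e-07) and of -1.15 after saline. Egr2 read 219, 232, 159.5, 183 and 179 against 717, 931, 884, 659.7 and 619.8 (difference -1.88, adjusted p = 1.29e-05). Fos overlapped through a single neocortical array of 499.9, with the other 4 at 1308 to 1942 and the hippocampus at 437 to 666 (difference -1.12, adjusted p = 0.0162).

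Homer1, a scaffold of glutamate receptors, and the orphan receptor Nr4a1 differed by -1.41 and -1.14, and a dimmer probe set of Homer1 by -2.07. Jun went the other way, at 2261, 2129, 2067, 1608 and 2134 in the hippocampus and 921, 661, 764, 561 and 1022 in the neocortex (difference 1.38, SE 0.16, adjusted p = 4.97e-05), and 1.29 after saline. In the test against saline 1 gene of the list was called, Gadd45g, a stress-induced growth arrest gene named here after its values were seen, whose kainate difference was 0.96 against 0.06 after saline (shift 0.90, adjusted p = 0.0382).

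Ionotropic glutamate receptor genes were called in both directions, 1 of 13 higher (7.69%) and 2 lower (15.4%). Over all probe sets the shares were 5.68% and 5.11%, and the list median was -0.15 (saline -0.19). Gria1, an AMPA receptor subunit, read 6949, 7008, 8022, 6432 and 6821 in the hippocampus and 2725, 2773, 3065, 3146 and 3664 in the neocortex, the 1 gene higher among 13 of the ionotropic list (difference 1.20, SE 0.10, adjusted p = 2.71e-06). Gria3, another AMPA subunit, and Cacng2, the auxiliary subunit stargazin, were lower, at -0.63 and -1.02 (adjusted p = 0.00689 and 1.73e-04). Of 22 metabotropic glutamate, monoamine and peptide receptors, Npy2r, Adra2c, an adrenergic receptor (0.68), and Ntsr2, an astrocytic neurotensin receptor (0.56), were higher, and Adra1b (-1.53) and Grm8 (-0.60) lower. The Adra1b call was lost without kainate neocortex replicate 1 (adjusted p = 0.0524), and that of Grm8 without any 1 of 8 arrays (adjusted p up to 0.114).

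Among 11 GABA and glycine receptor genes, 4 were lower in the hippocampus, with Gabrd and Gabra3 the lowest, followed by Glrb, the glycine receptor beta subunit (-0.68, adjusted p = 0.014), and Gabbr1, a GABA-B subunit (-0.34). The Gabbr1 call was lost without any 1 of 6 arrays (adjusted p up to 0.066), and Gabrb1 was higher (0.43, adjusted p = 0.0075). Voltage-gated and leak channels were lower in 11 of 33 and higher in 2, with a median of -0.24 (saline -0.34), and 8 were lower without hippocampal replicate 3. Kcnh1, an ether-a-go-go potassium channel, ranged from 135 to 387 in the hippocampus and from 508 to 979 in the neocortex (difference -1.60, adjusted p = 0.00142).

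None of 28 synaptic vesicle and SNARE genes was called higher, and 7 were lower, with a median of -0.21 (saline -0.10). After Stx1a, the differences were small. Snap25, its partner in the fusion complex, ranged from 29305 to 32674 against 38432 to 44965 (difference -0.46, SE 0.07, adjusted p = 8.45e-04), and Pclo, an active zone scaffold, differed by -0.48. The calls of Syt1, Syt4 and Cplx1 were each lost without any 1 of 6 arrays (adjusted p up to 0.0885, 0.0907 and 0.1), and the list had 4 lower genes without hippocampal replicate 3.

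Calcium-binding proteins and kinases split evenly, with 8 of 35 higher and 8 lower. Calb2, Cpne6 and Prkcd, a protein kinase C (0.77), were among the higher ones. Lower were Rgs4, a G-protein regulator (-1.59, adjusted p = 1.06e-05), Atp2b2, a plasma membrane calcium pump (-1.11), Calb1 and Nrgn, neurogranin (-0.86). After saline, Rgs4, Atp2b2 and Nrgn differed by -1.94, -1.33 and -0.53, and Calb1 by -0.19.

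Axon guidance genes separated the regions in both directions, 5 higher and 6 lower of 34. Nrp1, the semaphorin and VEGF co-receptor neuropilin, read 3619, 3622, 3619, 3085 and 3169 in the hippocampus and 1385, 1458, 1188, 1016 and 1068 in the neocortex (difference 1.48, SE 0.12, adjusted p = 1.80e-06). Its ligand Sema3a was lower in the hippocampus, at 54.4, 134, 61.2, 196 and 80 against 343, 373, 322, 256 and 248 (difference -1.53, adjusted p = 0.00794). Plxnd1, a plexin receptor, and Efnb2, an ephrin, were lower too (-1.05 and -0.91), and Epha6, an ephrin receptor, was higher (1.09). After saline, the differences of Nrp1, Sema3a, Plxnd1 and Epha6 were 1.51, -1.81, -1.23 and 1.15, and the test against saline called no gene of the list.

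Of 30 cadherins, contactins and junction genes, 3 were higher (10.0%) and 5 lower (16.7%), against 5.68% and 5.11% of all probe sets, with a median of -0.05 against 0.02. Dsp and Pkp2, the desmosomal plakophilin, led the higher ones (2.42 and 1.82, adjusted p = 1.10e-04 and 9.79e-05). Cntn4, a contactin, was lower (-1.65, adjusted p = 0.00831), as were Cdh13 (-0.69) and Ctnna2 (-0.67), of which Ctnna2 has 2 dimmer probe sets that were not called. The Pcdh7 call (-1.71) was lost without any 1 of 4 arrays (adjusted p up to 0.0643).

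Myelin genes were higher in the hippocampus by small amounts, 6 of 14 with none called lower and a median of 0.37 (saline 0.32). Mobp, a myelin structural protein, ranged from 14938 to 19907 against 10692 to 12179 (difference 0.59, adjusted p = 8.88e-04), and a dimmer probe set was not called (0.45, adjusted p = 0.0897). Mbp, myelin basic protein, ranged from 24242 to 33238 against 18664 to 23590, a difference of 0.34 that did not pass (adjusted p = 0.0544), and a dimmer probe set read -0.13. With median centring 2 of the list were called, and the calls of Gsn, Mog and Qdpr were lost without any 1 of 8, 9 and 5 arrays (adjusted p up to 0.0832, 0.0997 and 0.0691). Oligodendrocyte precursor genes were called in 2 of 7, Ptprz1 (0.76, with 0.04 and -0.24 on its other probe sets) and Nkx2-2, whose call was lost without any 1 of 8 arrays (adjusted p up to 0.093).

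Markers of other tissues that a dissection could carry along were compared as well. The summed signal of 31 endothelial and mural genes was 57453 to 66815 in the kainate hippocampus and 54197 to 61930 in the kainate neocortex, and 2 genes were called higher (6.45%, near the 5.68% of all probe sets), Sparc, also an astrocyte gene (0.71), and Ramp2 (0.45). The Ramp2 call was lost without kainate neocortex replicate 2 (adjusted p = 0.0553). Blood cell genes summed to 24037 to 44719 and 22409 to 46893, with 1 of 13 called, Ighm, an immunoglobulin heavy chain, at -0.45, a call lost without any 1 of 5 arrays (adjusted p up to 0.0691). Ighm is also the 1 gene of that list called in the test against saline (0.63, adjusted p = 0.02), lost without any 1 of 4 of 22 arrays (adjusted p up to 0.0559). A dimmer Ighm probe set differed by 0.18 between the regions (adjusted p = 0.642), and its shift of 0.56 was not called (adjusted p = 0.57). Both sums overlapped between the regions.

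Choroid plexus and meningeal genes summed to 41396 to 61570 and 39315 to 55703, which overlapped, with 3 of 19 higher and 2 lower. Ttr, the transthyretin of the choroid plexus, read 2790, 9511, 38.1, 466 and 7393 in the hippocampus and 831, 2001, 197, 175 and 504 in the neocortex, a wide spread in both (difference 1.43, adjusted p = 0.524). Dcn, decorin, was higher in the hippocampus (1.59, adjusted p = 1.31e-06, saline 1.61), as were Bgn, biglycan (0.80, not called on a dimmer probe set), and Folr1, a folate receptor (1.36). The Folr1 call was lost without kainate hippocampus replicate 2 or kainate neocortex replicate 3 (adjusted p up to 0.0564). Igfbp6 (-1.14) and Fmod (-1.04) were lower, and a second probe set of Fmod read the other way (1.08, adjusted p = 0.288). Striatum and thalamus genes summed to 12683 to 13706 and 11025 to 14347 and had 2 of 12 higher, Calb2 and Prkcd, and 3 lower, Tac1, Rora (-0.99) and Foxp1, of which Tac1 and Foxp1 were lost without any 1 of 5 and 7 arrays (adjusted p up to 0.0746 and 0.092). The part of such tissue in the differences above was not tested.

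**Figure D5:**
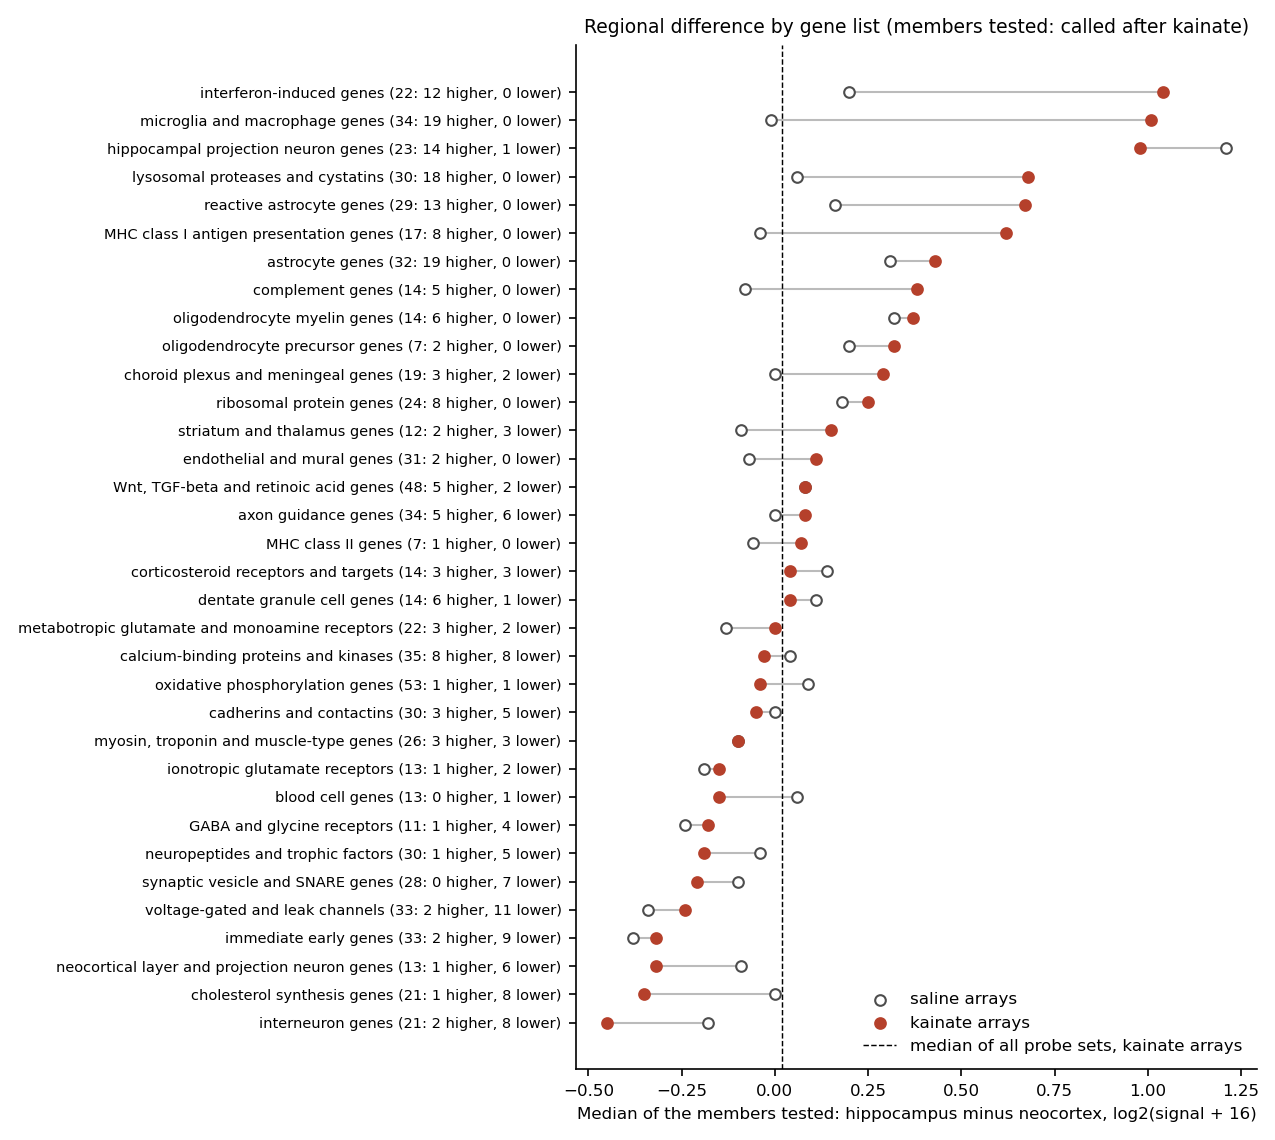
Median of hippocampus minus neocortex on the log2(signal + 16) scale over the members tested of each of the 34 gene lists, after kainate (filled) and after saline (open), with the numbers called after kainate beside each name and a dashed line at the median of all probe sets, 0.02. The microglial list lies at 1.01 after kainate and at -0.01 after saline, while the hippocampal neuron list lies at 0.98 and 1.21.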

How the data were processed

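The deposited values are intensities, 1 signal per probe set and array, from 12 µg of total RNA per the labels' protocols. The submitters' processing notes name MAS5 as the authors' software. The version and settings are not given in the sources used here. The table holds 12488 probe sets, of which 66 are controls. Of the other 12422, 10833 carried 1 gene symbol in GEO's platform annotation, 396 several and 1193 none, and symbols were updated through Entrez for 10817. In the gene lists a gene is represented by the tested probe set with the highest mean over 34 arrays, and among the highest and lowest genes by the called probe set with the highest mean. Near-identical family members may share probes.

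Signals were analysed as log2(signal + 16) after leaving out the dimmest 30%, with limma 3.58.1 in R 4.3.3 (lmFit, eBayes with an intensity trend, Benjamini-Hochberg adjustment over 8695 probe sets, threshold 0.05). The regional difference was fitted on the 10 kainate arrays, and its difference from the saline one on all 34 arrays in 6 groups. The code was tested on simulated data. Promoter sequences are RefSeq's, build GRCm38.p6, read with Python 3.11.15. The arrays, comparisons and 34 gene lists were chosen with earlier results of these data known. Named were the 15 highest and 15 lowest genes with arrays apart, the 10 highest and lowest in the test against saline, up to 6 per list with the largest called change, each called member where 5 or fewer were called, and defining markers whatever their value (Gfap, Aif1, Itgam, Sst, Pvalb, Gad1, Calb1, Prox1, Zbtb20, Mbp and Ttr). Alternatives were other pseudocounts, filters, scalings, array weights, a replicate or cluster block, no trend, other samples in the fit and each array left out.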

Additional observations from a re-analysis of the deposited data

Results flagged for a closer look

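In 16 of the 346 groups of 5 arrays examined, 1 array of a named gene lay far from the other 4, its gap exceeding 0.71 of the group's range. Chance alone gives such a gap in about 1 of 20 groups, so the 16 found are near the number that chance alone would give. Neocortical replicate 5 held 4 of them. Agt, angiotensinogen, read 531 there against 118 to 186 in the other 4. Dsp, the desmosomal desmoplakin, read 309 there against 65 to 133 in the other 4. Ifi35, an interferon-induced protein, read 178 there against 56.7 to 83.9 in the other 4. Gsn, gelsolin, read 2336 there against 2821 to 2977 in the other 4. Hippocampal replicate 3, the array with the lowest microglial levels, held 3. H2-K2, a class I gene, read 2893 there against 4379 to 4849 in the other 4. Dcn, decorin, read 2586 there against 3387 to 3607 in the other 4. Hmgcs1, the sterol enzyme, read 1472 there against 1861 to 2004 in the other 4. Irf8, the microglial transcription factor, read 974 in hippocampal replicate 1 against 788 to 813 in the other 4. Sst, somatostatin, read 5288 in hippocampal replicate 1 against 6355 to 6576 in the other 4. Cdk14, a kinase, read 2156 in neocortical replicate 4 against 2621 to 2772 in the other 4. Ctnna2, the neuronal catenin, read 4635 in neocortical replicate 4 against 3800 to 4000 in the other 4. Calb1, calbindin, read 3390 in neocortical replicate 3 against 2990 to 3084 in the other 4. Dtl, a ubiquitin ligase adaptor, read 738 in neocortical replicate 3 against 420.2 to 505 in the other 4. Pcdh7, a protocadherin, read 192 in hippocampal replicate 2 against 54.7 to 90.1 in the other 4. Tnnc1, a troponin, read 136 in hippocampal replicate 2 against 30.4 to 36.7 in the other 4. Gabra3, a GABA-A subunit, read 572 in neocortical replicate 1 against 669 to 703 in the other 4.

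For 32 named genes the regional difference after kainate differed from that after saline (limma on 34 arrays), given here as the shift on the log2 scale with the adjusted p in parentheses. Microglial genes shifted toward the hippocampus were Cst7 4.65 (2.57e-06), Mpeg1 2.84 (7.03e-08), Csf3r 2.86 (0.00591), Cd52 2.51 (0.00196), Ly86 1.64 (0.00364), Tyrobp 1.71 (1.24e-04) and Cd68 1.26 (1.60e-05). The Csf3r value comes from a dim probe set, and a brighter one was not called between the regions after kainate (difference 0.30, adjusted p = 0.301). For the cathepsins the shifts were Ctss 1.62 (8.52e-09), Ctsd 1.47 (2.85e-05) and Ctsz 1.53 (0.0262), and for the C1q subunits C1qa 1.65 (1.07e-08), C1qb 1.56 (2.91e-07) and C1qc 1.64 (2.77e-05). Class I and interferon-induced genes followed with H2-D1 1.72 (1.00e-05), H2-D4 2.30 (0.00248), H2-K1 1.93 (3.87e-05), Ifit3 2.74 (0.00111) and Lgals3bp 1.92 (1.30e-06). Among astrocyte and stress genes they were Gfap 1.16 (3.87e-05), Serpina3n 1.28 (1.00e-05), Apoe 0.60 (0.00113), Clu 0.64 (0.0181), Mt1 0.41 (0.0399) and Mt2 0.46 (0.0393). The immunoglobulin gene Ighm shifted by 0.63 (0.02) although its level after kainate was lower in the hippocampus, and on a dimmer probe set the shift of 0.56 was not called (0.57). Penk and Gadd45g, which were named after their values were seen and are not among the 32, shifted by 1.15 (0.0484) and 0.90 (0.0382). Both lie near the threshold, and how their calls fare with single arrays left out is not given here. Neuronal genes shifted toward the neocortex were Wfs1 -0.88 (9.99e-04), Calb1 -0.80 (5.73e-05) and Cpne6 -0.52 (0.0195). Shifted the same way were the kinase gene Cdk14 -0.58 (0.0203) and the sterol genes Idi1 -0.90 (0.00196), Hmgcs1 -0.82 (0.0484) and Msmo1 -0.91 (0.0393). Without hippocampal replicate 3 the same test called 88 probe sets in place of 77.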

How the results depend on the processing

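Under the analytic alternatives the number of probe sets called between the regions after kainate stayed within 1.5 times the 938 reported. It was 932 and 958 with pseudocounts of 1 and 64, 867 with no filter on low values, 877 with the dimmest 50% left out, 902 with median centring, 910 with quantile normalization, 1236 with array weights, 760 without an intensity trend and 1145 with all 34 arrays in the fit. Those settings kept 77.5% to 99.9% of the 938 calls. Leaving out 1 array gave 701 to 886, of which 371 to 493 were higher and 305 to 421 lower, and kept 73.7% to 84.8% of the 938. In the test against saline, leaving out 1 array gave 55 to 88 calls, 51 to 77 of them toward the hippocampus and 4 to 12 toward the neocortex, in place of 77, 69 and 8. Median centring, which moved the median of all probe sets by -0.10 in that test, left 41 toward the hippocampus and 12 toward the neocortex. The count toward the neocortex was 5 with no filter, without the trend or with the 22 saline and kainate arrays alone, and 14 with the spiked control cluster as a block. The lowest of these, 4, arose without kainate hippocampus replicate 5, and 5 without kainate neocortex replicate 1 or 2, saline hippocampus replicate 3 or saline neocortex replicate 3 or 4. Same-numbered kainate arrays deviated together at 0.07, -0.04, -0.09, 0.06 and 0.01, and 1 of 5 matched its own number best. Such correlations cannot settle whether a replicate number marks 1 mouse, which the labels do not say. With the replicate number as a block 741 probe sets were called between the regions and 85 against saline. Over 173 named genes and their alternatives, 3407 of 3749 region calls were unchanged, 332 no longer passed, 10 newly passed and 0 changed sign. Over 32 genes in the test against saline, 100 of 1052 no longer passed and 0 changed sign. The median standard error of a regional difference was 0.177, and the number of arrays limits the precision.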

Other observations

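Ribosomal protein genes were higher in the kainate hippocampus in 8 of 24, by small amounts, with a median of 0.25 (saline 0.18), and 3 were called with median centring and 5 without hippocampal replicate 3. Rplp0 and Rps4x differed by 0.49 and 0.43 (limma, adjusted p = 0.00243 and 0.00595). Oxidative phosphorylation genes hardly separated the regions, with 1 of 53 higher and 1 lower (1.89% each, under the background). The lower one, Cox6a2, the heart and muscle form of a cytochrome oxidase subunit, differed by -0.92 (adjusted p = 0.00197), and the higher one, Uqcrb, by 0.48, a call lost without kainate neocortex replicate 2 (adjusted p = 0.0509). In the list of myosins, troponins and other muscle-type genes, Tnnc1, Myl4 (-1.31, and -2.34 on a dimmer probe set) and Myh7 (-0.82) were lower in the hippocampus, as after saline (-3.32, -1.05 and -0.85). Its 3 higher genes, Myh8, Tnni1 and Myh9, were lost without any 1 of 8, 6 and 1 arrays (adjusted p up to 0.111, 0.0778 and 0.0527), the last without kainate hippocampus replicate 2, and none of them was called with median centring.

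Of 14 corticosteroid receptors and targets, 3 were higher in the kainate hippocampus, Mt1, Mt2 and Fkbp5, a chaperone of the glucocorticoid receptor (0.67, saline 0.62), and 3 lower. The lower ones were Crhr1, the receptor of corticotropin-releasing hormone (-1.09, saline -1.24), Dusp1, a phosphatase (-0.85, saline -0.85), and Cdkn1a (-0.53, saline -1.64). This Cdkn1a call was lost without any 1 of 7 arrays (adjusted p up to 0.0903), while a dimmer probe set differed by -1.52 (adjusted p = 0.00461). Among 48 Wnt, TGF-beta and retinoic acid genes, 5 were higher (10.4%) and 2 lower (4.17%), against 5.68% and 5.11% of all probe sets, with a median of 0.08. Wnt4, a secreted ligand, read 160.3, 184, 396, 98.9 and 348 in the hippocampus and 712, 625, 724, 607 and 484 in the neocortex (difference -1.49, adjusted p = 0.00542), Id2, an inhibitor of helix-loop-helix factors, differed by -0.66, and its relative Id3 by 0.91. Aldh1a1, an enzyme of retinoic acid synthesis, differed by 0.73 (adjusted p = 0.00381).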
